A study of Mus musculus with 12 samples.

Results

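AP-1 and small Maf genes were followed through a STING stimulation experiment in mouse macrophages. The 9 genes were taken by name from the 24062 gene entries of the expression table, namely Fos, Fosb and Fosl2 of the Fos family, Jun, Junb and Jund of the Jun family, and Maff, Mafk and Mafg, the small Maf genes. Messenger RNA of primary bone marrow derived macrophages from wild-type C57Bl/6 mice, labelled as passage 1, was sequenced in 4 groups of 3 libraries each. One group received C-178, a covalent small-molecule inhibitor of STING, together with CMA, a compound that activates mouse STING. The other groups received CMA alone, received C-178 alone, or were left unstimulated. The design text gives a treatment time of 2 h, with doses and vehicle not given in the sources used here, nor the age of the mice. The labels do not say whether libraries of a group came from separate animals or cultures, so the p-values below measure the spread between these libraries only, which may be technical.

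AP-1 is a dimer of basic leucine zipper proteins, in which a Fos protein pairs with a Jun protein or Jun proteins pair with each other, and it binds short palindromic DNA sites. Its genes are classic early response genes of macrophages, switched on within the first hours after a stimulus, and their proteins act at promoters of cytokine and protease genes. Small Maf proteins belong to the same zipper class but lack a transactivation domain. They act through their partners: with NRF2 and its relatives they activate genes with an antioxidant response element, and with BACH1, or as dimers of themselves, they repress them.

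Reads per library lay between 7.049 and 36.438 M. C-178 library 1 and C-178 plus CMA library 1 were the deepest, at 28.476 and 36.438 M, and the 3 CMA libraries held between 7.126 and 7.826 M. Headings identify the libraries of the treated groups as 1 to 3, while a heading shared by a pair of unstimulated columns leaves these libraries named 1, a and b here. All 11 macrophage markers found in the table, such as Lyz2 and Csf1r, averaged above 100 normalised counts in every group. The summed level of 11 fibroblast markers was 767 to 2130 with C-178 plus CMA, 1831 to 3458 with CMA, 1685 to 1957 with C-178 and 1327 to 1495 without stimulation, and that of 6 lymphoid markers was at most 33.1 in any library. For 8 neutrophil markers the sum was 599 to 989.5 with C-178 plus CMA and 835 to 976 with CMA. It was 821 to 878 with C-178 and 858 to 1212 without stimulation. The fibroblast sum was thus higher in each CMA and each C-178 library than in each unstimulated library. Its part in the results below was not tested. In such bulk samples, fewer cells of a type and less RNA per cell cannot be told apart.

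The start regions of 3 members are shown because they carry the contrast on which the results turn: Jun and Maff rose with CMA and were lower when C-178 was present too, whereas Mafk rose in both settings. Each window runs from 250 bases before to 50 bases after a transcription start listed by RefSeq on GRCm38.p6, 5′ to 3′ on the strand of the gene, and motif letters are in capitals. The Jun window is chr4:95052173-95052472 on the minus strand. The Maff windows, on the plus strand, are chr15:79347270-79347569 and chr15:79348152-79348451, and the Mafk window is chr5:139791286-139791585 on the plus strand. The labels upstream and downstream compare these Maff windows with each other only. A further Maff window, chr15:79346371-79346670, lies upstream of both and is not shown.
Jun: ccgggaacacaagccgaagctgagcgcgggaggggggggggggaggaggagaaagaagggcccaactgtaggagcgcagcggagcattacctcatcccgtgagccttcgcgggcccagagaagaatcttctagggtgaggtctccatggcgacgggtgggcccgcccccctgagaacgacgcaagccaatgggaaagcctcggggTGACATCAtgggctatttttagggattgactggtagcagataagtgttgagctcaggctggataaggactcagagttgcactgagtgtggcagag
Maff, upstream start: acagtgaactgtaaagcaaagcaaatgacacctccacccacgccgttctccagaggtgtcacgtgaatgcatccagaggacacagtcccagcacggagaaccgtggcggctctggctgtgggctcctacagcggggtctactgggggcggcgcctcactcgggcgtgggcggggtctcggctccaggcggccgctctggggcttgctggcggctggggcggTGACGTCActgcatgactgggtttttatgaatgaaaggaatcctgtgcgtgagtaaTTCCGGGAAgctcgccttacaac
Maff, downstream start: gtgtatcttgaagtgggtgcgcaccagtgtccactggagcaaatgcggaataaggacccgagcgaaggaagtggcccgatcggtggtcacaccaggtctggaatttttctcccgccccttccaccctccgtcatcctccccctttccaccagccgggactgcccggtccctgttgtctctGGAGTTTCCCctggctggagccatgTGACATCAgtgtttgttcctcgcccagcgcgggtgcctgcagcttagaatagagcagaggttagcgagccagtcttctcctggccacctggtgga
Mafk: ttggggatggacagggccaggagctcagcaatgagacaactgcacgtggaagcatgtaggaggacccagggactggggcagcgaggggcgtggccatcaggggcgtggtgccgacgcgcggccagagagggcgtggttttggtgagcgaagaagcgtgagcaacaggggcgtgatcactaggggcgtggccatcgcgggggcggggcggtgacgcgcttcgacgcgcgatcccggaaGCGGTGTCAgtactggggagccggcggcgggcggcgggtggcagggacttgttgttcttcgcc

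The letters TGACATCA, a variant of the cyclic AMP response element to which Jun and ATF2 are known to bind, stood 45 to 38 bases before the start in Jun and, at the same distance, before the downstream start of Maff. Of 32851 RefSeq start windows of this length, 3.62% hold these letters on either strand. The Maff start labelled upstream had the full element TGACGTCA 29 to 22 bases before it, which 1.79% of windows hold. It also had the letters of a GAS site (TTCNNNGAA, in 8.30% of windows) from base 27 to 35 after it. The downstream start of Maff had a match to the NF-kB consensus (8.46% of windows), read on the other strand, 70 to 61 bases before it. Matches to this consensus were also found in Fos, Fosb and Fosl2, none of which was called higher with CMA. Mafk held the core of an antioxidant response element, TGACNNNGC, read on the other strand 13 to 5 bases before its start, a motif found in 12.39% of windows. The Maff window not shown, which lies furthest upstream, and Mafg also held this core. No TRE (TGANTCA, 7.81% of windows), the classic AP-1 site, was found in the 11 windows of the 9 members, nor an SRF CArG box (1.63%). Bases outside the windows were not searched, so these absences hold for the windows only. A core of the interferon-stimulated response element (GAAA, any 2 bases, GAAA, in 3.44%) was found in Fosl2 alone. Junb and Jund held none of the 8 motifs searched on both strands. The Jund window, chr8:70697489-70697788, ends before the gene coordinates given below begin, at chr8:70698949. These matches describe letters in a window and not bound sites.

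Levels can be compared between genes only per length of transcript, and per kilobase (kb) of exon the members spanned a wide range. In CMA libraries the order of levels was Junb at 2166 ± 151 normalised counts per kb (SD, n = 3), Jun at 1190 ± 45.7, Mafk at 572 ± 53.5, Fos at 374 ± 37.5, Jund at 138 ± 23.5, Maff at 61.5 ± 13.8, Mafg at 25.6 ± 1.76, Fosl2 at 13.9 ± 5.24 and Fosb at 1.51 ± 1.47. No neighbours in that order overlapped between libraries. In unstimulated libraries the order was Junb at 738 ± 121 normalised counts per kb, Jun at 423 ± 37.3, Fos at 391 ± 24.1, Jund at 362 ± 91.3, Mafg at 87.5 ± 5.95, Mafk at 55.5 ± 2.77, Fosl2 at 29.9 ± 3.54, Maff at 2.199 ± 0.216 and Fosb at 2.01 ± 0.958. There the libraries of Jun, Fos and Jund overlapped, as did those of Maff and Fosb. Mafk therefore stood below Mafg and the abundant AP-1 genes without stimulation and above Fos with CMA.

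**Figure D1:**
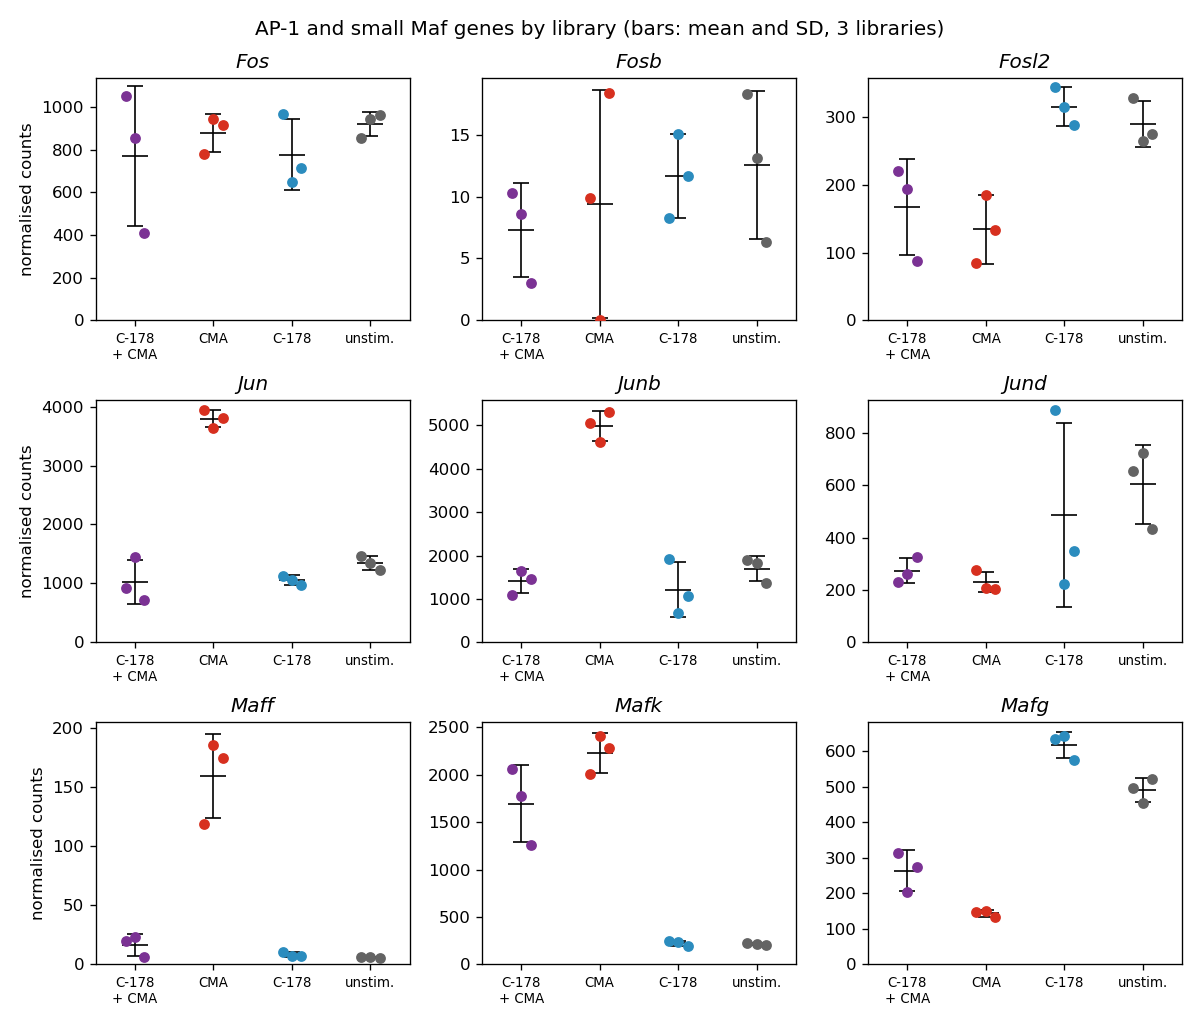
Normalised counts of the 9 genes by library on linear axes that start at 0, with points for libraries and bars for the mean and SD of 3 libraries in each of the groups C-178 plus CMA, CMA, C-178 and unstimulated. Jun, Junb and Maff stand high in the CMA group alone, Mafk stands high in both groups given CMA, and Mafg stands low in both.

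The effect of the agonist alone on these genes was read from CMA and unstimulated libraries. The Jun family genes Jun and Junb rose, the small Maf genes Maff and Mafk rose far more, and Jund, Fosl2 and Mafg fell. Fos, the name-giving member of AP-1, and its relative Fosb were not called. In all, 4 of 9 members were called higher and 3 lower by limma at an adjusted p under 0.05, beside 19.4% higher and 17.9% lower among all 11440 genes tested. The CMA and unstimulated libraries did not overlap for 4 members on the higher side and 3 on the lower side, against 31.0% and 30.9% of all genes. The median log2 change was -0.07 over the members and -0.01 over all genes.

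Jun (chr4:95049034-95052222, minus strand, mm10) encodes c-Jun, the strongest activator of its family. It had 3934, 3643 and 3805 normalised counts in CMA libraries 1, 2 and 3, against 1470, 1345 and 1232 in unstimulated libraries 1, a and b. Every CMA library was above every unstimulated library, by more than the spread within either group. Jun averaged 3794 ± 146 with CMA and 1349 ± 119 without stimulation (SD, n = 3 each), a 2.81-fold rise (log2 change 1.49 ± 0.19, adjusted p = 2.82e-05, limma). Junb (chr8:84974484-84978718, minus strand) encodes a family member that can also restrain c-Jun, and had 5043, 4611 and 5299 with CMA, against 1888, 1831 and 1378 without stimulation. Its libraries did not overlap either, and it rose 2.93-fold (log2 change 1.56 ± 0.29, adjusted p = 0.000623, limma). Prdx2, which lies on the opposite strand and shares 173 exon bases with Junb, averaged 1168 ± 79.2 with CMA and 1198 ± 99.0 without stimulation and was not called (log2 change -0.04 ± 0.19, adjusted p = 0.900).

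Jund (chr8:70698949-70700616, plus strand) encodes the family member that is made in most resting cells. It had 275, 209 and 206 normalised counts in CMA libraries, against 653, 724 and 432 in unstimulated libraries. The groups did not overlap, although unstimulated library b lay well below the other two, and Jund fell to a mean of 230 ± 39.2, against 603 ± 152 without stimulation (log2 change -1.37 ± 0.37, adjusted p = 0.0104, limma). Jund has the highest GC content of the 9 genes, 67.15% of its exon bases. Among all genes, the difference of a library from the unstimulated mean followed GC content with a Spearman rho of -0.270 to -0.299 in the CMA libraries and of 0.172, 0.224 and -0.339 in unstimulated libraries 1, a and b. With the trend on GC content and length taken out of each library, the log2 change of Jund was -0.54 and the call was lost (adjusted p = 0.0634). The antisense transcripts Junos and Gm11175, which overlap Jun and Jund in the annotation, were not analysed here, and the sources used here do not say whether strand was used in counting.

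The Fos family showed no rise at 2 h, the only treatment time given, and an earlier rise was not measured. Fos (chr12:85473890-85477273, plus strand) encodes c-Fos, which cannot bind DNA without a Jun partner. It had 779.6, 945 and 914 normalised counts with CMA, against 855, 944 and 961 without stimulation, and the groups overlapped. Its log2 change was -0.07 ± 0.27 with a 95% interval of -0.64 to 0.51 (adjusted p = 0.869, limma), so a rise as large as that of Jun lies outside the interval. Fosl2 (chr5:32135801-32157842, plus strand) encodes Fra-2, a Fos relative known to be induced later and to lack a strong activation domain. It had 84.1, 186 and 134 with CMA, against 328, 265 and 275 without stimulation, with no overlap, and fell 2.15-fold (log2 change -1.17 ± 0.32, adjusted p = 0.0102, limma). CMA library 1 was the lowest, and without it the log2 change of Fosl2 was -0.87 and the call was lost (adjusted p = 0.0532). Fosb (chr7:19302696-19310051, minus strand), a relative best known from neurons, held few reads: 6, 0 and 10 in CMA libraries, against 24, 22 and 10 in unstimulated libraries. A library without a read, CMA library 2, allows up to 5.92 normalised counts at a floor of 3 reads. The groups overlapped, and no difference of Fosb was detectable at this depth (adjusted p = 0.351, limma). Such floors cover counting error only.

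Small Maf genes showed the largest changes among the members. Maff (chr15:79346621-79359076, plus strand), the small Maf gene known to be inducible by inflammatory stimuli, had 119, 186 and 174 normalised counts with CMA, against 6.08, 5.97 and 5.06 without stimulation. Behind these values were 72, 94 and 95 reads with CMA and 8, 10 and 8 reads without stimulation. No CMA library came near the unstimulated ones, and the mean was 27.96-fold higher (log2 change 4.56 ± 0.40, adjusted p = 7.96e-07, limma). Maff passed the filter for testing with 6 libraries above 10 normalised counts: the 3 CMA libraries, C-178 plus CMA libraries 1 and 2, and C-178 library 1. Mafk (chr5:139791513-139802653, plus strand), which encodes the p18 subunit first described with the erythroid factor NF-E2, had 2003, 2412 and 2278 with CMA, against 227, 217 and 205 without stimulation. It rose 10.3-fold (log2 change 3.36 ± 0.17, adjusted p = 3.11e-09, limma), and the smallest CMA value was more than 8 times the largest unstimulated value. Mafg (chr11:120625117-120633600, minus strand), the small Maf gene most widely used in resting tissues, went the other way. It had 148, 150 and 132 with CMA, against 496, 456 and 522 without stimulation, and fell 3.42-fold (log2 change -1.77 ± 0.16, adjusted p = 7.66e-07, limma). Sirt7, which starts inside the last exon of Mafg on the same strand with 124 shared exon bases, was lower as well (log2 change -0.76 ± 0.15, adjusted p = 0.00132), by less than Mafg. Tmem184a, which overlaps the end of Mafk, held no read in CMA or unstimulated libraries.

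**Figure D2:**
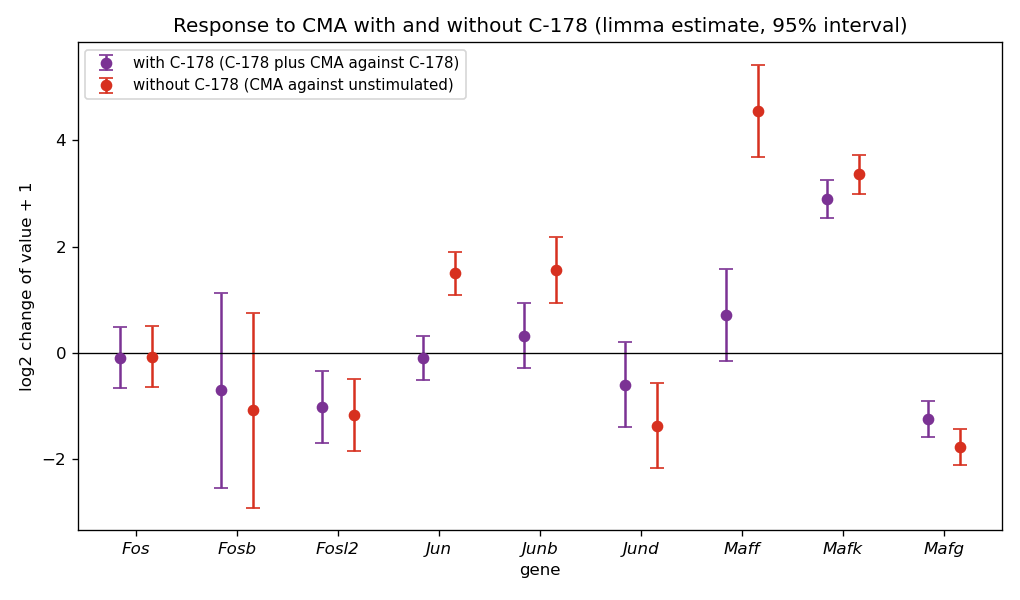
Log2 change of each gene on the value + 1 scale, as the limma estimate with its 95% interval, in the presence of C-178 (both compounds against C-178) and in its absence (CMA against no stimulation). The estimates of Jun and Maff lie far apart between the comparisons. Those of Mafk (2.90 and 3.36) and Mafg (-1.24 and -1.77) lie closer to each other, and the intervals of Fos include 0 in both.

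The effect of the inhibitor by itself was read from C-178 and unstimulated libraries. By limma, 0 of 9 members were called in either direction, beside 0.0962% of all genes called higher and 0.00% called lower. At an unadjusted p under 0.05 the count was also 0, and edgeR and DESeq2 on recovered reads called 0 members. Mafk had 244, 232 and 193 normalised counts with C-178, against 227, 217 and 205 without stimulation, and its interval of -0.32 to 0.40 on the log2 scale excludes a change of the size seen with CMA. The C-178 and unstimulated libraries did not overlap for Maff and Mafg on the higher side and for Jun on the lower side, beside 7.87% and 7.68% of all genes. Mafg had 636, 643 and 575 with C-178, against 496, 456 and 522 without stimulation (log2 change 0.33 ± 0.16, adjusted p = 1, limma). Maff stood at 10.4, 7.53 and 7.26 with C-178 (log2 change 0.47 ± 0.40, adjusted p = 1) and Jun at 1131, 1064 and 976 (log2 change -0.35 ± 0.19, adjusted p = 1).

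The C-178 libraries disagreed among themselves for the GC-rich genes Junb and Jund. Junb had 1916, 666 and 1062 normalised counts with C-178 and Jund had 887, 223 and 350.2, the deep library 1 being highest for both genes. Across all genes the difference from the unstimulated mean followed GC content with a Spearman rho of -0.000843 in C-178 library 1, -0.413 in library 2 and -0.213 in library 3, and the part of this in the spread of Junb and Jund was not tested. Fos (965, 649 and 715) was likewise highest in library 1, whereas Fosl2 (344, 315 and 288) and Fosb (8.25, 15.1 and 11.6) stayed within or near the unstimulated range. With limma weights per library, which rated unstimulated library a and C-178 library 3 highest, 1849 genes were called in place of 11. Among them were Mafg as higher (log2 change 0.33, adjusted p = 0.0128) and Fos (-0.35, adjusted p = 0.0205), Jun (-0.42, adjusted p = 0.00189), Junb (-0.70, adjusted p = 0.00332) and Jund (-0.84, adjusted p = 0.00888) as lower.

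How much of the agonist response the inhibitor removed was read from C-178 plus CMA and CMA libraries. Jun, Junb and Maff were lower with both compounds, Mafg was higher, and Mafk stayed high. Of 9 members 1 was called higher and 3 lower, beside 10.6% and 13.5% of all genes. Libraries did not overlap for the same numbers of members, 1 and 3, against 17.0% and 18.5% of all genes. The median log2 change was -0.29 over the members and 0.00 over all genes. Because this comparison shares the CMA libraries with that of CMA against no stimulation, the values of a gene in both are given side by side and are not counted as separate evidence.

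Jun had 916, 1444 and 726 normalised counts with C-178 plus CMA, against 3934, 3643 and 3805 with CMA, and was 3.69-fold lower (log2 change -1.94 ± 0.19, adjusted p = 3.11e-05, limma). Junb had 1100, 1648 and 1470 with both compounds, against 5043, 4611 and 5299 with CMA, and was 3.54-fold lower (log2 change -1.84 ± 0.29, adjusted p = 0.000855, limma). For both genes each library with C-178 plus CMA lay far under each CMA library. Maff had 20.2, 22.9 and 6.11 with C-178 plus CMA, against 119, 186 and 174 with CMA, and was 9.73-fold lower (log2 change -3.36 ± 0.40, adjusted p = 0.000142, limma). All 3 calls held in each of the 25 alternative settings tried. Mafg had 315, 203 and 275 with C-178 plus CMA, against 148, 150 and 132 with CMA, a 1.84-fold rise with no overlap (log2 change 0.86 ± 0.16, adjusted p = 0.00227, limma).

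Mafk had 2056, 1778 and 1254 normalised counts with C-178 plus CMA, against 2003, 2412 and 2278 with CMA. Library 1 with both compounds was above CMA library 1, so the groups overlapped, and the log2 change of -0.42 ± 0.17 was not called (95% interval -0.78 to -0.06, adjusted p = 0.081, limma). Mafk was called lower in 4 of 25 settings. Those were removal of the GC content and length trend (log2 change -0.69, adjusted p = 0.0168), the same with pairing by library number (adjusted p = 0.0208), and omission of C-178 plus CMA library 1 without or with C-178 library 1 (-0.57, adjusted p = 0.0311 and 0.0355). Without C-178 plus CMA library 3, the lowest for Mafk, the log2 change was -0.22 (adjusted p = 0.255). The Fos family and Jund were not called. Fos had 1050, 855 and 409.5 with C-178 plus CMA (log2 change -0.29 ± 0.27), Fosl2 had 220.2, 194 and 87.1 (0.28 ± 0.32), Fosb had 10.3, 8.57 and 3.06 (0.35 ± 0.85) and Jund had 232, 261 and 327 (0.25 ± 0.37). The change of Fosb is positive on the log2(value + 1) scale, with CMA library 2 at 0 reads, whereas its mean was lower with C-178 plus CMA, at 7.30 normalised counts, against 9.42 with CMA. Library 3 with C-178 plus CMA was the lowest of its group for 6 of the 9 members, Fos, Fosb, Fosl2, Jun, Maff and Mafk. Omitting it left the 4 calls of this comparison in place.

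What was left of the agonist response when the inhibitor was present was read from C-178 plus CMA and C-178 libraries. Mafk was called higher and Mafg and Fosl2 lower, whereas Jun, Junb and Maff were not called. By limma, 1 member was called higher and 2 lower, beside 13.5% and 12.6% of all genes, and the same numbers did not overlap between groups, against 16.8% and 17.2% of all genes. Mafk averaged 1696 ± 407 normalised counts with C-178 plus CMA and 223 ± 26.4 with C-178 (SD, n = 3 each), a 7.61-fold rise (log2 change 2.90 ± 0.17, adjusted p = 2.88e-08, limma). Mafg averaged 264 ± 56.9 with C-178 plus CMA and 618 ± 37.2 with C-178, and fell 2.34-fold (log2 change -1.24 ± 0.16, adjusted p = 4.85e-05, limma). Both calls held in all 25 alternative settings.

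Fosl2 averaged 167 ± 70.5 normalised counts with C-178 plus CMA and 315 ± 28.1 with C-178 (log2 change -1.02 ± 0.32, adjusted p = 0.0311, limma), and this call was lost in 8 of 25 settings. Omitting C-178 library 1, 2 or 3 gave adjusted p = 0.0804, 0.0826 and 0.0595. Omitting C-178 plus CMA library 3 gave a log2 change of -0.60 (adjusted p = 0.0871). Jun averaged 1028 ± 372 with C-178 plus CMA and 1057 ± 77.5 with C-178, with a 95% interval of -0.51 to 0.31 on the log2 scale. The interval of Junb was -0.29 to 0.94 and that of Maff -0.14 to 1.59. For each of these 3 genes a rise of the size seen with CMA alone lies above the interval. These intervals use 1 spread shared by all groups and may be too narrow for C-178 plus CMA, whose libraries differed most. Single libraries moved these calls: Junb was called higher without C-178 library 1 (log2 change 0.72, adjusted p = 0.0332) or both deep libraries (0.89, adjusted p = 0.0147), Maff was called higher without C-178 plus CMA library 3 (1.28, adjusted p = 0.00453), and Jun was called lower without C-178 plus CMA library 2 (-0.37, adjusted p = 0.0392).

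C-178 plus CMA against no stimulation sets the level with both compounds beside the baseline. Members called were 2 higher, Mafk and Maff, and 2 lower, Mafg and Jund, beside 11.1% higher and 10.5% lower among all genes. Libraries did not overlap for 2 members on the higher side and 3 on the lower, against 16.9% and 17.6% of all genes. Mafk was 7.84-fold higher (log2 change 2.94 ± 0.17, adjusted p = 3.32e-08, limma) and Mafg 1.86-fold lower (log2 change -0.91 ± 0.16, adjusted p = 0.000712), and these calls held in all 23 settings. Maff was 2.87-fold higher by its means (log2 change 1.20 ± 0.40, adjusted p = 0.0488) but rested on 61, 16 and 4 reads with C-178 plus CMA, and its library 3 at 6.11 normalised counts barely cleared the highest unstimulated library at 6.08. The Maff call was lost in 19 of 23 settings, and on leaving out any single library other than C-178 plus CMA library 3, without which the log2 change was 1.75 (adjusted p = 0.000402). For Jund (log2 change -1.12 ± 0.37, adjusted p = 0.0471) the call was lost in 10 of 23 settings, including the omission of unstimulated library 1 (adjusted p = 0.140) or a (0.162), of C-178 library 3, of any CMA library, and of C-178 plus CMA library 1 (0.118) or 2 (0.0712). Fosl2 was not called (log2 change -0.89 ± 0.32, adjusted p = 0.0619) although its groups did not overlap, and was called lower in 6 of 23 settings: with TMM scaling (adjusted p = 0.0482), with DESeq2 (0.0382), without CMA library 1 (0.0442), without C-178 plus CMA library 1 (0.0276) or 2 (0.0376), and without both deep libraries (0.0398). Jun averaged 1028 ± 372 with C-178 plus CMA and 1349 ± 119 without stimulation and was not called (adjusted p = 0.118), except without C-178 plus CMA library 2 (log2 change -0.72, adjusted p = 0.00121).

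Whether the CMA response itself differed with and without C-178 was tested as an interaction, the change from C-178 to C-178 plus CMA minus the change from unstimulated to CMA. Jun and Maff responded less in the presence of C-178. By limma 0 members were called higher and 2 lower, beside 3.95% and 5.99% of all genes, and 4 of 9 members had an unadjusted p under 0.05. The difference of the responses was -1.59 ± 0.27 on the log2 scale for Jun (adjusted p = 0.00437) and -3.84 ± 0.57 for Maff (adjusted p = 0.00227). Both calls held in all 22 alternative settings. The difference for Junb (log2 change -1.24 ± 0.41, adjusted p = 0.0653) was not called, and was called in 6 of 22 settings, among them edgeR (adjusted p = 0.0491), DESeq2 (0.0134), removal of the GC content and length trend (log2 difference -1.84, adjusted p = 0.00514), and omission of C-178 library 2 (-1.61, adjusted p = 0.0199) or C-178 plus CMA library 2 (-1.36, adjusted p = 0.0286).

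The responses of Mafk and Mafg were not shown to differ. The interaction of Mafk was -0.46 ± 0.24 (95% interval -0.97 to 0.05, adjusted p = 0.198) and was called in 0 of 22 settings, so the interval allows anything from no difference to a reduction of about 1 on the log2 scale. That of Mafg was 0.52 ± 0.22 (95% interval 0.05 to 1.00, adjusted p = 0.126), called without C-178 plus CMA library 2 (0.70, adjusted p = 0.0103) and with weights per library (0.62, adjusted p = 0.0310). Fos (-0.03 ± 0.38), Fosb (0.38 ± 1.21) and Fosl2 (0.15 ± 0.45) were not called in any setting. Jund (0.77 ± 0.53) was called higher without C-178 library 1 (1.32, adjusted p = 0.0340) and without both deep libraries (1.43, adjusted p = 0.0386).

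The composition of each family summarises these shifts per kb of exon. Mafk made up 88.8% ± 2.42 of small Maf counts per kb with C-178 plus CMA, 86.8% ± 0.736 with CMA, 33.5% ± 1.39 with C-178 and 38.2% ± 2.31 without stimulation (SD, n = 3 each). Mafg made up 9.95% ± 2.99 with C-178 plus CMA, 3.91% ± 0.535 with CMA, 64.7% ± 1.59 with C-178 and 60.2% ± 2.48 without stimulation. Mafg was thus the most abundant small Maf transcript in each library without CMA, and Mafk in each library with it. Maff reached 9.25% ± 1.25 with CMA alone and stayed at 1.24% ± 0.568, 1.89% ± 0.303 and 1.52% ± 0.173 with C-178 plus CMA, with C-178 and without stimulation. The summed small Maf level was 488 ± 109.5 normalised counts per kb with C-178 plus CMA, 659 ± 66.9 with CMA, 171 ± 13.7 with C-178 and 145 ± 5.18 without stimulation.

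In the Jun family, Junb was the most abundant transcript in the mean of every group. Jund made up 15.2% ± 3.32 of Jun family counts per kb with C-178 plus CMA, 3.94% ± 0.603 with CMA, 23.4% ± 6.83 with C-178 and 23.5% ± 2.74 without stimulation. Its share with CMA, at most 4.596% in any library, lay below that of every library of the other groups. The summed Jun family level was 1098 ± 213 per kb with C-178 plus CMA, 3494 ± 193 with CMA, 1151 ± 504 with C-178 and 1523 ± 242 without stimulation, while that of the Fos family was 347 ± 147 with C-178 plus CMA, 389 ± 42.0 with CMA, 365 ± 72.7 with C-178 and 423 ± 19.9 without stimulation. Fos itself made up over 88% of Fos family counts per kb in every library. These shares repeat the gene values in another form and were not tested.

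**Figure D3:**
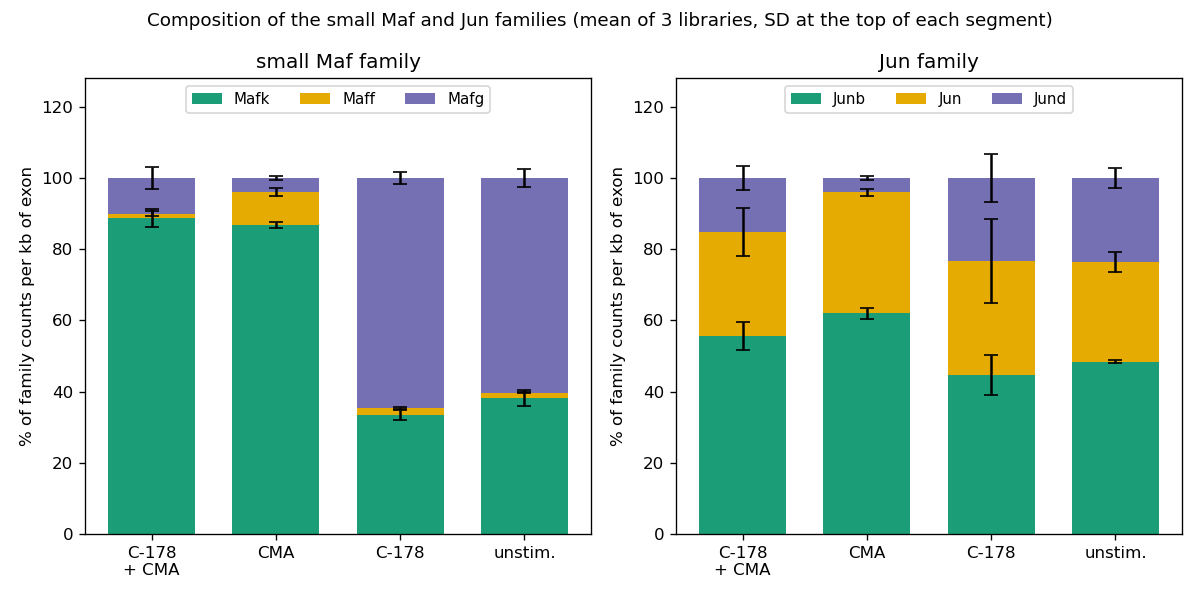
Share of small Maf (left) and Jun family (right) normalised counts per kb of exon, in %, as stacked means of 3 libraries with the SD at the top of each segment, for C-178 plus CMA, CMA, C-178 and unstimulated libraries. Mafk makes up 88.8% and 86.8% in the groups given CMA and Mafg 64.7% and 60.2% in the groups without it, and Jund makes up 3.94% with CMA.

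Over the 12 libraries, Jun and Junb varied together (Pearson r of log2 values 0.90), as did Jun and Maff (0.89), whereas Mafk correlated less with Jun (0.52) and inversely with Mafg (-0.92). These coefficients describe 12 libraries that share treatments and depth, and they carry no p-value. The genes whose profile was most like that of Mafk were Mx2 (r = 0.999), Rsad2 (0.998) and Cmpk2 (0.998), of which Mx2 and Rsad2 encode antiviral proteins induced by interferon. Mx2 averaged 4627 normalised counts with C-178 plus CMA, 8101 with CMA, 100.3 with C-178 and 110.9 without stimulation. It too stayed far above the unstimulated level with C-178 plus CMA, at a lower mean than with CMA. Closest to Maff were Serpina3i (r = 0.997), Sirt1 (0.988) and Ankib1 (0.987). Serpina3i belongs to a cluster of close gene copies that could share reads and averaged 28.9 normalised counts with CMA. Sirt1, which encodes a protein deacetylase, averaged 300.4 with C-178 plus CMA, 1855 with CMA, 198 with C-178 and 157 without stimulation.

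Jun was closest to Pde4b (r = 0.972), which encodes a cyclic AMP phosphodiesterase, then to Kif17 (0.970) and Cd55 (0.964). Pde4b averaged 197 with C-178 plus CMA, 1054 with CMA, 254 with C-178 and 285 without stimulation. Junb was closest to Pla2r1 (0.958), Ube2h (0.948) and Nfkb2 (0.935), the last of which encodes an NF-kB subunit precursor. Mafg was closest to Stk17b (0.989), Fgd3 (0.985) and Fastkd3 (0.985), and Fosl2 to the scavenger receptor gene Stab1 (0.969). Fos was closest to Fcrls (0.953), Jund to Spi1 (0.940), which encodes the macrophage factor PU.1, and Fosb to E230029C05Rik (0.925). Each neighbour is the best of all tested genes, so high coefficients are built into the choice.

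**Figure D4:**
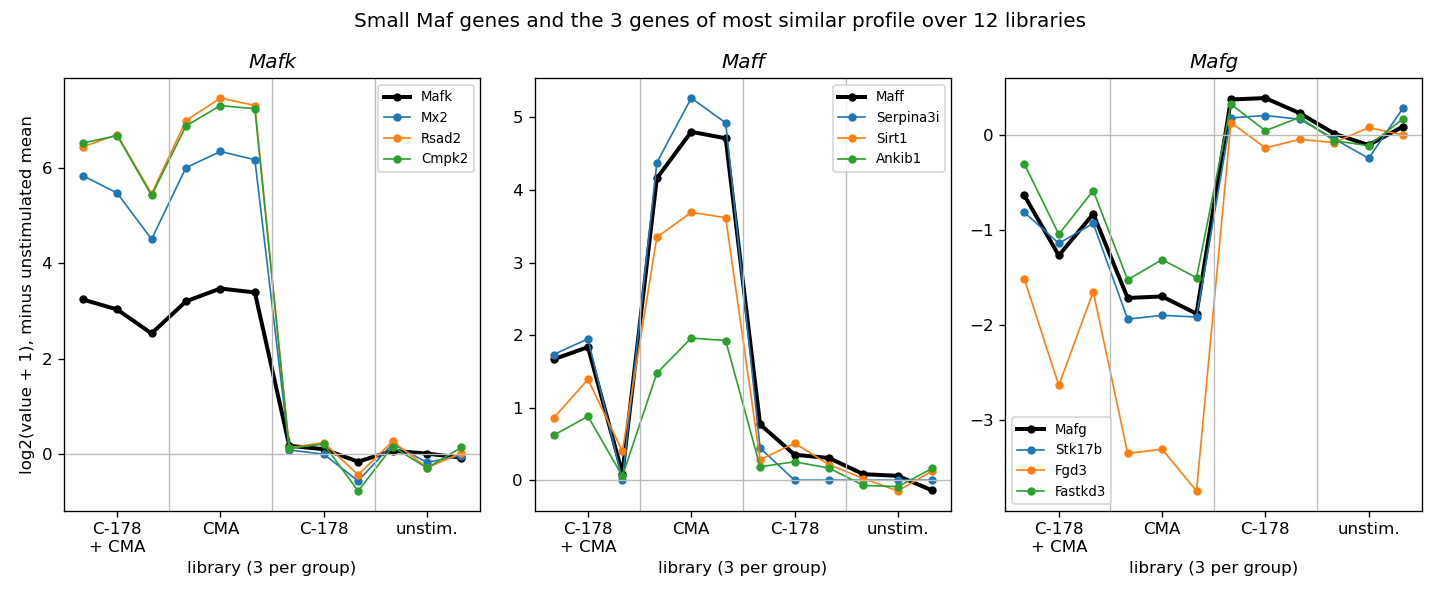
Log2 of value + 1 in each library, minus the unstimulated mean, for Mafk, Maff and Mafg (black) and the 3 genes with the highest Pearson r to each over 12 libraries, grouped as C-178 plus CMA, CMA, C-178 and unstimulated. Mafk and its neighbours stay high with C-178 plus CMA, Maff and its neighbours are higher with CMA than in the other groups, and Mafg and its neighbours are low in both groups given CMA.

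The other genes of the basic leucine zipper class moved in both directions with CMA. Of 21 tested, 4 rose and 7 fell with CMA, beside 19.4% and 17.9% of all genes (median log2 change -0.46, all genes -0.01), and 0 were called with C-178. With C-178 plus CMA against CMA 5 rose and 4 fell, beside 10.6% and 13.5% of all genes. The 4 that rose with CMA are thus a share near that of all genes. Batf2, which encodes a zipper protein that pairs with Jun proteins, rose most clearly with CMA (log2 change 5.32 ± 0.20) and was lower with C-178 plus CMA than with CMA (-1.52 ± 0.20). Crem, a gene of the cyclic AMP responsive class, rose with CMA (2.33 ± 0.24).

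Among the 6 tested partners and regulators of small Maf proteins, 2 rose and 1 fell with CMA, beside 19.4% and 17.9% of all genes (median -0.37), and 0 were called with C-178 plus CMA against CMA, where 10.6% of all genes were called higher and 13.5% lower. Bach1, which encodes the repressing partner, averaged 4197 normalised counts with C-178 plus CMA, 6509 with CMA, 1832 with C-178 and 1458 without stimulation (CMA against no stimulation 2.16 ± 0.28). Keap1, which encodes the adaptor that marks NRF2 for degradation, rose with CMA (1.22 ± 0.16), and Nfe2l1, which encodes an NRF2 relative, fell slightly (-0.43 ± 0.12). Bach1 and Keap1 were thus higher with CMA, as was Mafk. Between C-178 plus CMA and CMA the log2 change was -0.76 ± 0.28 for Bach1 (adjusted p = 0.0614, limma). For Keap1 it was 0.33 ± 0.16 (adjusted p = 0.144, limma). Neither was called, which does not show that their levels were equal.

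Of 15 antioxidant genes with sites that NRF2 and small Maf proteins are known to bind, 1 rose and 3 fell with CMA, beside 19.4% and 17.9% of all genes. In the same list 6 rose with C-178, beside 0.0962% of all genes, which is 11 genes with these 6 included. With C-178 plus CMA against CMA 11 of the list rose, beside 10.6% of all genes (median log2 change 0.68, all genes 0.00). This list, like the others, was written with earlier results of these data known, so its counts are a description and not a test. Srxn1, the sulfiredoxin gene, fell with CMA (-0.62 ± 0.14) and rose with C-178 (1.09 ± 0.14). Gclc, a gene of glutathione synthesis, behaved likewise (-0.48 ± 0.12 and 1.20 ± 0.12), and Osgin1 fell with CMA (-2.25 ± 0.27). No small Maf gene was called with C-178 alone in the fit reported. With weights per library Mafg was called higher (log2 change 0.33, adjusted p = 0.0128, limma).

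Of 17 genes with classic AP-1 sites, 7 rose and 0 fell with CMA, beside 19.4% and 17.9% of all genes (median 0.31). With C-178 plus CMA against CMA 0 rose and 7 fell, beside 10.6% and 13.5% of all genes (median -0.39). Most of these genes also carry sites for other factors. The chemokine gene Ccl2 (4.56 ± 0.14) and the cytokine genes Tnf (3.33 ± 0.21) and Il6 (6.75 ± 0.53) were the most clearly raised. With C-178 plus CMA against CMA, Ccl2 was lower by little (-0.65 ± 0.14) and Tnf (-2.51 ± 0.21) and Il6 (-3.15 ± 0.53) by more.

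Upstream of AP-1, 5 of 22 MAP kinase cascade genes rose and 8 fell with CMA, beside 19.4% and 17.9% of all genes (median -0.12). With C-178 plus CMA against CMA 6 rose and 3 fell, beside 10.6% and 13.5% of all genes. The 5 that rose and the 3 that fell are thus shares near those of all genes. Map2k4, which encodes a kinase of the JNK route that phosphorylates c-Jun, rose with CMA (1.70 ± 0.11). Map3k1, a kinase gene higher in the same route, fell (-1.53 ± 0.13), as did Rps6ka1 (-1.10 ± 0.12). Of 10 genes for SRF, its cofactors and CREB coactivators, which act at the Fos promoter, 1 rose and 4 fell with CMA, beside 19.4% and 17.9% of all genes (median -0.33): Elk4 rose (1.59 ± 0.34), and Mkl1 (-1.10 ± 0.13) and Crtc3 (-0.81 ± 0.14) fell. Neither list held a gene called with C-178 alone. Messenger RNA does not report the phosphorylation through which these kinases act.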

How the data were processed

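The values are a signal per gene and library from the table deposited by the authors: read counts divided by a size factor per library, called normalised counts here. Dividing each column by its smallest step gave whole reads for 100% of values (tolerance 0.01). The genome build was mm10, and the tools Bowtie2 2.2.1 and limma 3.18.13 are named without a role, per the submitters' processing notes. The kit was stranded, per the labels' protocols, which also speak of embryonic fibroblasts in the RNA extraction. No counting tool or strand setting was given in the sources used here. A further 12 columns, of Cook's distances, stayed unused.

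The 11440 genes over 10 normalised counts in 3 or more of the 12 libraries were tested with limma 3.58.1 under R 4.3.3 on log2(value + 1), with a mean-variance trend, all 4 groups in 1 model and no replicate block. P-values were adjusted by Benjamini and Hochberg over all genes, and genes under 0.05 were called. Fold changes of low genes depend on the offset of 1, which shrinks ratios of low values. A library at 0 can have the opposite effect, as for Fosb with CMA against no stimulation (log2 change -1.08, ratio of means 0.749). An exact permutation test of 3 against 3 libraries cannot give a p below 0.1. The checks on simulated data ran before the fits. They used 1 spread for all 12 libraries and changes in the CMA group only. They therefore do not cover the larger differences between C-178 plus CMA libraries given below. On recovered reads edgeR 4.0.16 called 4282 genes for CMA against no stimulation and DESeq2 1.42.0 called 4385, against 4271 by limma. Other alternatives were another offset, filters, TMM scaling, weights, thinned reads, a GC content and length correction (99.3% of tested genes had both properties), leaving out each library, fitting only the groups compared, and, added after seeing the data, leaving out both deep libraries.

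Library numbers were taken to pair C-178 with C-178 plus CMA, since residuals of same-numbered libraries correlated at 0.45, 0.43 and 0.26, above the minimum of 0.1. Correlations of differently numbered libraries are not given here. Library 1 was the deep one in both groups, and the part of depth in these correlations was not tested. The replicate block also paired the CMA libraries by number, although most of their correlations were below that minimum. These were -0.14, 0.18 and -0.16 with C-178 plus CMA and -0.04, 0.06 and -0.08 with C-178. Replicates differed by more than counting noise. The chi-square per gene between pairs of libraries was 68.3 to 113 with C-178 plus CMA and 2.465 to 9.89 with CMA. It was 7.668 to 26.3 with C-178 and 6.602 to 14.9 without stimulation. Weights per library were lowest for C-178 plus CMA libraries 1, 2 and 3, at 0.472, 0.268 and 0.154. All groups shared 1 estimate of the spread, so errors and intervals of comparisons with C-178 plus CMA may be too narrow. GENCODE M21 gave coordinates, exon lengths and overlaps, and RefSeq the start windows. Python 3.11.15, numpy 2.4.6, pandas 2.3.3 and matplotlib 3.10.9 were used for the rest. The members, the 6 gene lists and the naming rule (all 9 members, up to 3 called genes a list by adjusted p with CMA, and 3 profile neighbours a member) were chosen with earlier results of these data known.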

Additional observations from a re-analysis of the deposited data

Results flagged for a closer look

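The response to CMA differed with and without C-178 for 2 of the 9 genes by the interaction test. For Jun the change with C-178 present minus the change without it was -1.59 on the log2 scale (SE 0.27, limma adjusted p = 0.00437), with log2 changes of -0.10 with C-178 and 1.49 without it. For Maff it was -3.84 (SE 0.57, limma adjusted p = 0.00227), with log2 changes of 0.72 with C-178 and 4.56 without it.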

How the results depend on the processing

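For CMA against no stimulation 4 members were higher in each of 23 settings, and leaving out single libraries gave 2 to 3 lower and 3315 to 5152 genes called in all (4271 in the fit reported). With weights per library 7380 genes were called there, 1849 for C-178 against no stimulation (members 1 higher and 4 lower) and 3111 for the interaction (members 1 higher). For C-178 against no stimulation the count of 11 became 38 with DESeq2, 31 with only the groups compared, 21 without both deep libraries, and 4 to 29 on leaving out single libraries, where 0 members were called. Fitting only the groups compared gave 854 genes for C-178 plus CMA against CMA (2760 reported), 1338 against C-178 (2988 reported) and 1531 against no stimulation (2464 reported). Leaving out single libraries gave 1344 to 4711, 1941 to 4181 and 1651 to 3342 genes in these comparisons. Members called against CMA were then 1 higher and 3 to 4 lower, and in each of the other pair 1 to 2 higher and 1 to 3 lower.

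Against C-178, 1 member was lower without a filter, with weights, with only the groups compared and under the replicate block with the GC content and length trend removed, and 2 were higher without both deep libraries. Against no stimulation, 1 member was higher with log2(value + 4), without a filter, above 50 normalised counts, with TMM, on thinned reads, with the trend removed, with only the groups compared and without both deep libraries, and 1 was lower without a filter and on thinned reads. For the interaction 1137 genes became 1760 with DESeq2, 746 with the trend removed and 343 to 3699 on leaving out single libraries (members 0 to 1 higher and 2 to 3 lower). Without both deep libraries 1 member was higher there. The causes of these shifts were not tested.

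The replicate block alone changed no member call. It gave 2380 genes for both compounds against CMA and 2601 against C-178, and with the trend removed 1734 against CMA, where Mafk was called (adjusted p = 0.0208). Against C-178 the same fit lost Fosl2 (adjusted p = 0.0586). Fosb has no value under the filter above 50. No called member changed direction in any setting. Depth limits Fosb, and Maff outside the CMA group, which rest on 31 or fewer and 61 or fewer reads per library.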
